A study of Mus musculus with 30 samples.

Results

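The genes described here are Tdg, which encodes thymine DNA glycosylase, and Tet1, Tet2 and Tet3, which encode the TET dioxygenases. They were chosen by name, 4 genes of the 20286 gene symbols in the deposited expression tables, and each has a single row there. Their RNA was read in Tdg -/- mouse embryonic stem (ES) cells, in which Tdg is deleted, and in Tdg fl/fl ES cells, whose Tdg alleles carry loxP sites. Both carry the strain label C57BL/6-ICR. For other libraries of the series the labels give ES culture without feeder cells, in serum medium with LIF, the GSK3 inhibitor CHIR99021 and the MEK inhibitor PD0325901; for the RNA libraries they give no culture medium. Each genotype has 2 polyA RNA libraries, read from a single end at 51 bp, and the authors deposited 1 FPKM value for each gene row and genotype from them. Whether the 2 libraries of a genotype came from separate cultures or clones, how the lines were derived and which part of Tdg was removed are not given in the sources used here. With 1 value for each genotype there is no spread between replicates, so the differences below are descriptions without a test.

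TET enzymes use iron and 2-oxoglutarate to oxidise 5-methylcytosine to 5-hydroxymethylcytosine, and further to 5-formylcytosine and 5-carboxylcytosine. Thymine DNA glycosylase cuts the last of these bases, and the formyl form, out of DNA, and base excision repair then puts in an unmodified cytosine. In ES cells Tet1 and Tet2 are the family members known to be expressed, while Tet3 is best known from the oocyte and zygote and from differentiated tissues. Thymine DNA glycosylase is needed for mouse embryos to develop, and it also removes thymine from G:T mismatches.

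The promoters of these genes are shown because the proteins act on modified cytosine, mostly in CG dinucleotides, and because the windows of the highly expressed Tet1 and Tet2 differ in how many CG they hold. The sequences are from RefSeq (build GRCm38.p6), run from 250 bases before to 50 after the annotated start, are written 5′ to 3′ on the strand of the gene, and have each CG in capitals. They lie at chr10:82629588-82629887 on the plus strand for Tdg, at chr10:62887275-62887574 on the minus strand for Tet1 and at chr3:133544341-133544640 on the minus strand for Tet2.
Tdg: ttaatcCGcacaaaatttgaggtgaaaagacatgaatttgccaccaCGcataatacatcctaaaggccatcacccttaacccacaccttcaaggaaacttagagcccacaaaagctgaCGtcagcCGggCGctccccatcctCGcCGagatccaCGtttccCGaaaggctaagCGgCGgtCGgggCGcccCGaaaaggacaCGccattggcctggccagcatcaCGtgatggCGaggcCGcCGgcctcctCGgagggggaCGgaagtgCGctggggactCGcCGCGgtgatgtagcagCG
Tet1: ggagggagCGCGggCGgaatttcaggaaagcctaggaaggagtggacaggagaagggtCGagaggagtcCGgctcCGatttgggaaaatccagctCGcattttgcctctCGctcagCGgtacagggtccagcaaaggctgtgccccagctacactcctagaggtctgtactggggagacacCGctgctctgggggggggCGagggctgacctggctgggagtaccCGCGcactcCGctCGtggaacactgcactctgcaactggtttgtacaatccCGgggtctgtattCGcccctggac
Tet2: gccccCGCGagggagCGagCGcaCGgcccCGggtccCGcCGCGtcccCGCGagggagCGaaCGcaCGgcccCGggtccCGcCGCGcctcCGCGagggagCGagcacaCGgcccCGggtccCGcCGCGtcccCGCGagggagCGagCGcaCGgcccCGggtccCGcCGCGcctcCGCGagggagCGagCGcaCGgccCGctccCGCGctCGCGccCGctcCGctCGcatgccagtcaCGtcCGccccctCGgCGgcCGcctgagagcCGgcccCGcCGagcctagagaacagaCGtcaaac
The Tet2 window held 57 CG in 300 bases, more than 99.8% of the 32851 promoter windows in the table. The Tdg window held 26 CG, the Tet3 window 22 and the Tet1 window 17, against a median of 7 over all windows, so each of the 4 lay above the middle of that range. Within the Tet2 window the letters CCGCGAGGGAGCGA occurred 5 times at an even spacing of 42 bases, and no other window in the table held them on either strand. The Tdg window held TGACGTCA, the letters of the cAMP response element, which 1.79% of all windows hold on either strand, and the E-box letters CACGTG, which 7.15% hold. The letters CCAAT were in the Tdg and Tet3 windows and in 37.4% of all windows, and GGGCGG, the GC box, was in those of Tet1, Tet2 and Tet3 and in 35.7% of all. The TATA box letters TATAAA were in none of the 4 windows and in 13.6% of all. These motifs were picked after the sequences were seen, no match to a motif overlapped a match to another in the 4 windows, and a match describes letters and not binding.

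Tdg itself, the deleted gene, was read against the genotype labels. A gene-level value cannot show whether both alleles were deleted in every cell. It stood at 9.48 FPKM in Tdg -/- cells and 22.1 FPKM in Tdg fl/fl cells. The value in Tdg -/- cells was 42.9% of that in Tdg fl/fl cells, a log2 change of -1.14 on the log2(FPKM + 1) scale. The value was lower in the cells labelled as deleted, but Tdg RNA was still listed there: in Tdg -/- cells 44.4% of the 12053 genes measured at 1 FPKM or more in either genotype stood below it, and in Tdg fl/fl cells 69.3% did. Reads from exons that stayed in the deleted allele count towards the same FPKM value, and the tables do not split a gene by exon. RefSeq also lists 2 copies named Tdg-ps and Tdg-ps2, on chromosomes 15 and 10. Neither copy has an FPKM value under its own name, and the authors' treatment of reads that match several places is not stated in the sources used here. Glt8d2, a glycosyltransferase gene whose annotated end overlaps that of Tdg, stood at 0.0536 FPKM in Tdg -/- cells and 0.0482 FPKM in Tdg fl/fl cells. What part retained exons or these copies had in the value was not tested.

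**Figure D1:**
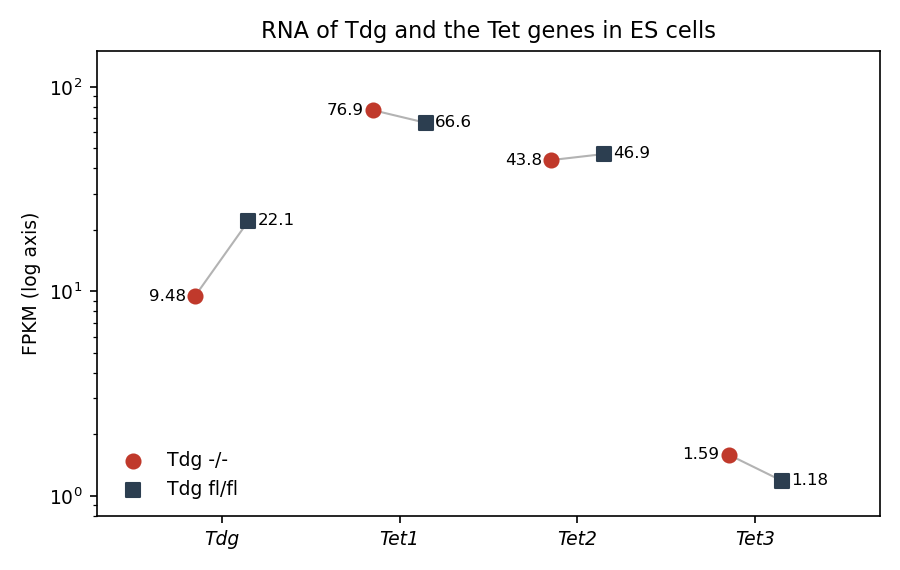
FPKM of Tdg, Tet1, Tet2 and Tet3 (log axis), with 1 pooled value for Tdg -/- ES cells (circles) and 1 for Tdg fl/fl ES cells (squares); grey lines join the values of a gene. Tdg lies lower in Tdg -/- cells, at 9.48 against 22.1 FPKM, and the order Tet1, Tet2, Tdg, Tet3 is the same in both genotypes.

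Few genes differed as much as Tdg. At least 2-fold lower values on the log2(FPKM + 1) scale were found for 21 of the 12053 measured genes (0.174%), at least 2-fold higher values for 22 (0.183%), and either for 0.357%. Of the 4 genes described here, Tdg passed this limit and none of the 3 Tet genes did. Only 13 measured genes had a lower log2 change than Tdg. Among the 500 genes nearest to it in mean level, between 13.6 and 16.1 FPKM on the average of both genotypes, 1 had a lower change, and the middle 90% lay between -0.32 and 0.27. The 3 genes most like Tdg over its pair of values were Igfbp4, which encodes a binding protein of insulin-like growth factors, Anapc11, a subunit of the anaphase promoting complex, and Emp1, an epithelial membrane protein. Likeness was the distance over the log2(FPKM + 1) values of the 2 genotypes. Igfbp4 had 8.64 FPKM in Tdg -/- cells and 22.7 FPKM in Tdg fl/fl cells, Anapc11 had 9.79 FPKM in Tdg -/- cells and 20.2 FPKM in Tdg fl/fl cells, and Emp1 had 9.79 FPKM in Tdg -/- cells and 19.7 FPKM in Tdg fl/fl cells. Igfbp4 and Anapc11 lie on chromosome 11, where the median log2 change of measured genes was -0.21, while Emp1 lies on chromosome 6.

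Tet1 was the highest of the 3 Tet genes in both genotypes. It stood at 76.9 FPKM in Tdg -/- cells and 66.6 FPKM in Tdg fl/fl cells, a ratio of 1.15 and a log2 change of 0.20. In Tdg -/- cells 92.6% of measured genes had a lower FPKM, and in Tdg fl/fl cells 90.7%. A change of this size or larger in either direction was found for 26.9% of the other measured genes, so the difference lay within the range common among genes. Of the 500 genes nearest in level, 451 had a lower change and 49 a higher one, around a median of -0.08. The genes nearest to Tet1 over both values were Rbpj, the DNA-binding factor of Notch signalling, the zinc finger gene Zranb2 and Slc44a1, a choline transporter. Rbpj stood at 76.8 FPKM in Tdg -/- cells and 67.0 FPKM in Tdg fl/fl cells.

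Tet2, which lacks the CXXC zinc finger that the long forms of Tet1 and Tet3 carry, came second. It stood at 43.8 FPKM in Tdg -/- cells and 46.9 FPKM in Tdg fl/fl cells, a ratio of 0.933 and a log2 change of -0.10. Of the other measured genes, 57.7% changed by as much or more in either direction, and among the 500 nearest in level 215 had a lower and 285 a higher change. Tet2 thus stood close to the middle of its level range, whose median change was -0.07. The nearest genes were Sumo3, a ubiquitin-like modifier, Timm50 of the mitochondrial import machinery and the ubiquitin ligase Rfwd3. Sumo3 had 44.0 FPKM in Tdg -/- cells and 46.7 FPKM in Tdg fl/fl cells.

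Tet3 was close to the lower limit of what was called measured. It stood at 1.59 FPKM in Tdg -/- cells and 1.18 FPKM in Tdg fl/fl cells, a ratio of 1.34 and a log2 change of 0.25. Only 7.93% of measured genes lay lower in Tdg -/- cells and 4.10% in Tdg fl/fl cells. The absolute difference was 0.406 FPKM, and because the read numbers behind it are unknown, no interval can be given for it. The pseudocount of 1 matters at this level: with 0.1 the log2 change was 0.40 and with 0.01 it was 0.42. Among the 500 genes nearest in level, 421 had a lower change and 79 a higher one. A change of this size or larger in either direction was found for 25.6% of these 500. Over all other measured genes the share was 19.7%. The genes nearest to Tet3 over both values were Zc3h12c, a zinc finger protein gene, Abtb2 and Angptl6, a secreted angiopoietin-like protein, each between 1.55 and 1.61 FPKM in Tdg -/- cells. The long noncoding RNA B230319C09Rik, which overlaps Tet3 in the annotation, was at 0.0147 FPKM in Tdg -/- cells and 0.0481 FPKM in Tdg fl/fl cells.

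**Figure D2:**
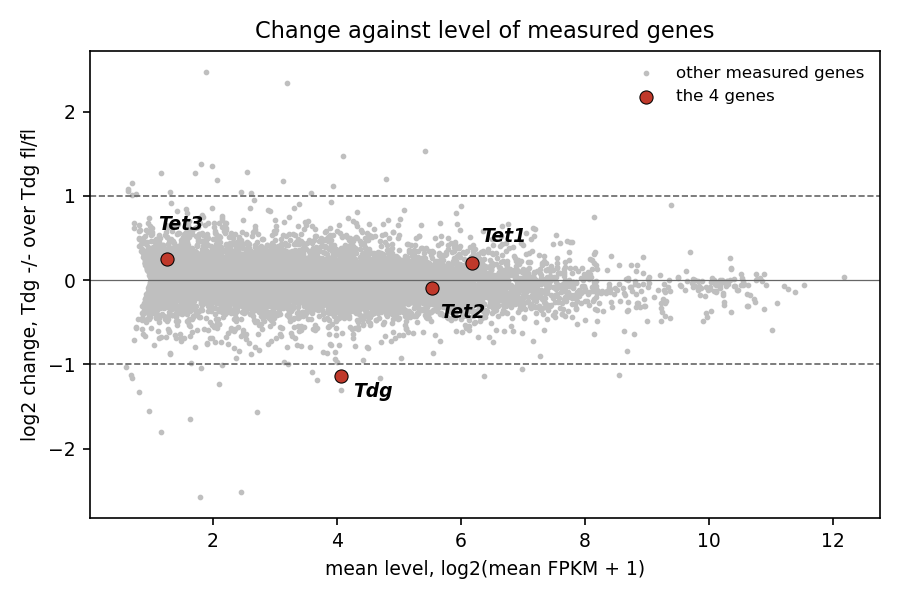
Log2 change, Tdg -/- over Tdg fl/fl, against the mean level of both genotypes, log2(mean FPKM + 1), for 12053 measured genes (grey) and the 4 genes described here (red); dashed lines mark a 2-fold change. Tdg, at -1.14, lies below the lower line, while Tet1, Tet2 and Tet3, between -0.10 and 0.25, lie inside the cloud.

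Since FPKM is a level per transcript length, the 4 genes can be ordered. For Tdg in Tdg -/- cells the value comes from a deleted allele and may not be a level of whole transcripts. Its place and ratios in those cells describe the listed value only. The order was Tet1, Tet2, Tdg and Tet3 in both genotypes, and with no replicates it cannot be said which neighbours in it differ beyond their spread. Tet1 exceeded Tet2 by a ratio of 1.76 in Tdg -/- cells and 1.42 in Tdg fl/fl cells. Tet2 exceeded Tet3 by ratios of 27.5 in Tdg -/- cells and 39.6 in Tdg fl/fl cells. Tdg was 5.96 times Tet3 in Tdg -/- cells and 18.6 times Tet3 in Tdg fl/fl cells. The 3 Tet genes together summed to 122 FPKM in Tdg -/- cells and 115 FPKM in Tdg fl/fl cells, a ratio of 1.07. Tet1 made up 62.9% of this sum in Tdg -/- cells and 58.1% in Tdg fl/fl cells. Tet2 made up 35.8% in Tdg -/- cells and 40.9% in Tdg fl/fl cells, and Tet3 1.3% in Tdg -/- cells and 1.03% in Tdg fl/fl cells. The Tet sum was 12.9 times the Tdg value in Tdg -/- cells and 5.20 times the Tdg value in Tdg fl/fl cells. Between the genotypes the Tdg values had a ratio of 0.429. Over the 3 Tet genes, 2 had a log2 change above 0 and 1 below, with a median of 0.20, and over all measured genes the median was -0.02 with 54.9% below 0.

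The chromosomal neighbours were read for each gene, in the gene order of GRCm38, since a change shared by a region would show there. Tdg had a lower log2 change than each of the measured genes near it. Its 25 nearest measured genes on chromosome 10 had a median log2 change of 0.06, between -0.44 and 0.66. None reached the size of the change of Tdg, beside 0.216% of all other measured genes. At that share 25 genes of most regions would hold none, so this count does not set the region apart. The measured genes next to it, 1190007I07Rik and Hcfc2, a host cell factor, had log2 changes of 0.19 and -0.07. Hcfc2 was at 3.00 FPKM in Tdg -/- cells and 3.19 FPKM in Tdg fl/fl cells. Tet1 lies on the same chromosome, and its 25 nearest measured genes had a median of 0.04, or -0.07 over the 11 nearest, with changes from -0.80 to 0.46. Of those 25, 5 changed by as much as Tet1 or more, beside 26.9% of the other measured genes. Its nearest measured neighbours Ccar1, a regulator of cell division and apoptosis, and Slc25a16, a mitochondrial carrier, were at -0.17 and 0.06.

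For Tet2 on chromosome 3 the neighbours' median was 0.0007 (log2). Of these 25, 12 changed by as much as Tet2 or more, beside 57.7% of the other measured genes. The lowest among them was Lef1, a transcription factor of Wnt signalling, at 0.824 FPKM in Tdg -/- cells and 1.92 FPKM in Tdg fl/fl cells. Tet3 on chromosome 6 stood above its surroundings: its 25 neighbours had a median of -0.10, or -0.04 over the 11 nearest. Of the 25, 18 lay below 0 and 7 above. None was as high as Tet3, while 1100 of the 12053 measured genes were higher. Counted in either direction, 2 of the 25 changed by as much as Tet3 or more, beside 19.7% of the other measured genes. Slc4a5, a bicarbonate cotransporter, was the lowest there, at 4.53 FPKM in Tdg -/- cells and 8.37 FPKM in Tdg fl/fl cells. Set against the median of its 25 neighbours, the log2 change was -1.20 for Tdg, 0.16 for Tet1, -0.10 for Tet2 and 0.35 for Tet3.

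**Figure D3:**
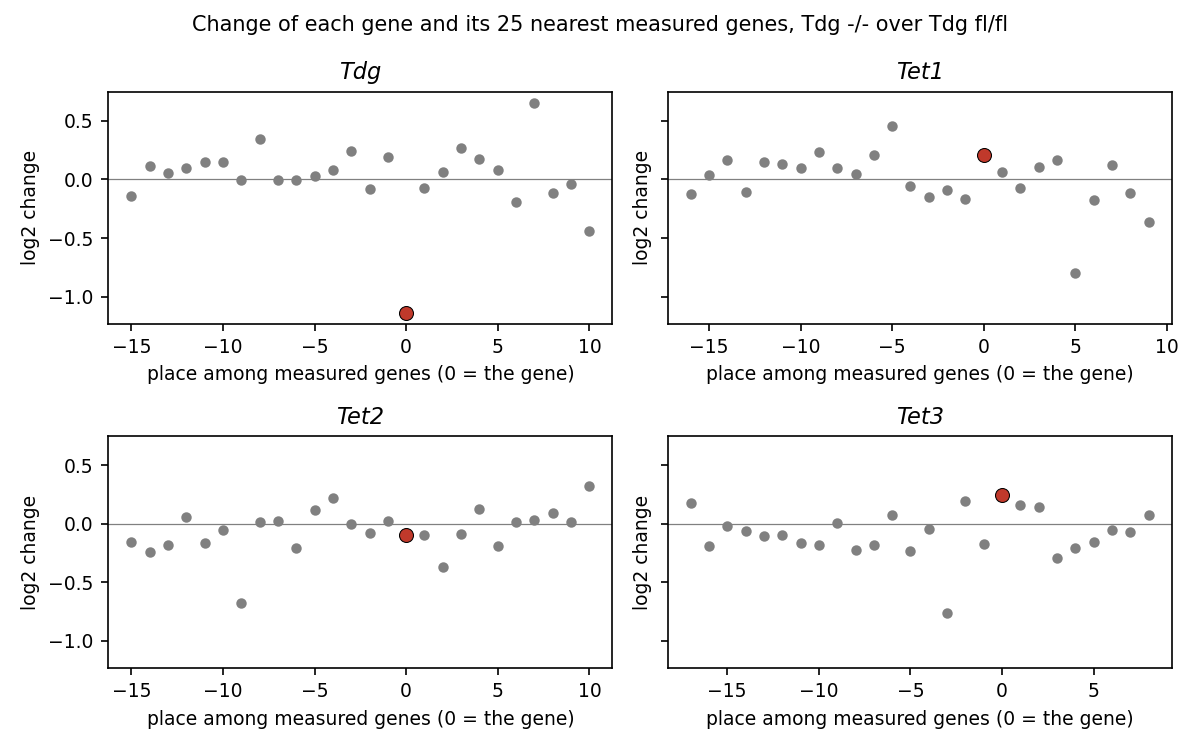
Log2 change, Tdg -/- over Tdg fl/fl, of each of the 4 genes (red, at 0) and of its 25 nearest measured genes (grey), by their place in the gene order. Tdg at -1.14 lies below every neighbour shown, whose lowest value is -0.44, while Tet1, Tet2 and Tet3 lie within or next to the range of theirs.

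Partners, pathways and protein families related to the TET enzymes and thymine DNA glycosylase were read in 8 lists that together hold 73 measured genes. A place in a list does not mean that the gene acts with these enzymes. None of the 73 changed 2-fold, beside 0.357% of all measured genes, and their log2 changes lay between -0.46 and 0.44. Of the TET partners, 3 of 9 measured genes were above 0 and 6 below, with a median of -0.05 (0.01 after quantile normalization). Ogt, the O-GlcNAc transferase that binds TET proteins, was the highest of all 73. It stood at 121 FPKM in Tdg -/- cells and 89.3 FPKM in Tdg fl/fl cells, a log2 change of 0.44. Lin28a, an RNA-binding protein described as recruiting Tet1, was at -0.20, the pluripotency factor Prdm14 at 0.16 and the corepressor Sin3a at -0.15. Cxxc4, whose protein binds and lowers TET2, was close to 0, at 0.0288 FPKM in Tdg -/- cells and 0.0256 FPKM in Tdg fl/fl cells.

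Genes that set the supply of 2-oxoglutarate, its competitors and ascorbate, all 15 of them measured, split 8 above and 7 below 0, with a median of 0.02. Idh2, which makes 2-oxoglutarate in mitochondria, stood at 159 FPKM in Tdg -/- cells and 124 FPKM in Tdg fl/fl cells (log2 change 0.35), and the ascorbate carrier Slc23a2 at 26.9 FPKM in Tdg -/- cells and 21.3 FPKM in Tdg fl/fl cells (0.32). The other ascorbate carrier Slc23a1 had a log2 change of -0.46 at 2.49 FPKM in Tdg -/- cells and 3.78 FPKM in Tdg fl/fl cells. Ogdh, which consumes 2-oxoglutarate, was at -0.41, with 24.6 FPKM in Tdg -/- cells and 32.9 FPKM in Tdg fl/fl cells.

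Of the other DNA glycosylases, 6 of 10 had a log2 change above 0 and 4 below, with a median of 0.03. Neil2, which removes oxidised bases, had the highest change, 0.23, at 13.9 FPKM in Tdg -/- cells and 11.7 FPKM in Tdg fl/fl cells. Mpg, the alkyladenine glycosylase, had the lowest, -0.33, and Neil1 was at 0.14. Mbd4, which like thymine DNA glycosylase removes thymine from G:T mismatches, was at 11.4 FPKM in Tdg -/- cells and 12.5 FPKM in Tdg fl/fl cells (log2 change -0.13).

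Of the genes that act after the glycosylase step, 11 of 12 lay below 0, with a median of -0.12, beside 54.9% and -0.02 over all measured genes. The differences were small. The median also differed with level, at -0.03 over the 500 genes nearest Tdg in level and -0.08 over the 500 nearest Tet1. The list was not matched by level. Apex1, the endonuclease that cuts the abasic site, stood at 87.1 FPKM in Tdg -/- cells and 101 FPKM in Tdg fl/fl cells (log2 change -0.21). The ligase Lig3 was at -0.30, the related endonuclease Apex2 at -0.20 and the sliding clamp Pcna at -0.18. Parp1, which senses the strand break, was the exception at 0.12. After quantile normalization the median of the list was -0.07, beside -0.003 over all measured genes.

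The genes of chromosome 11 tended to lower values in Tdg -/- cells, with a median log2 change of -0.21 over the 999 measured there, against -0.01 over those of the other chromosomes. Ogdh, Mpg and Lig3, each among the lowest of their lists, are the 3 of the 73 genes that lie on it, and what part this had in their values was not tested. None of the 4 genes described here lies on chromosome 11.

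**Figure D4:**
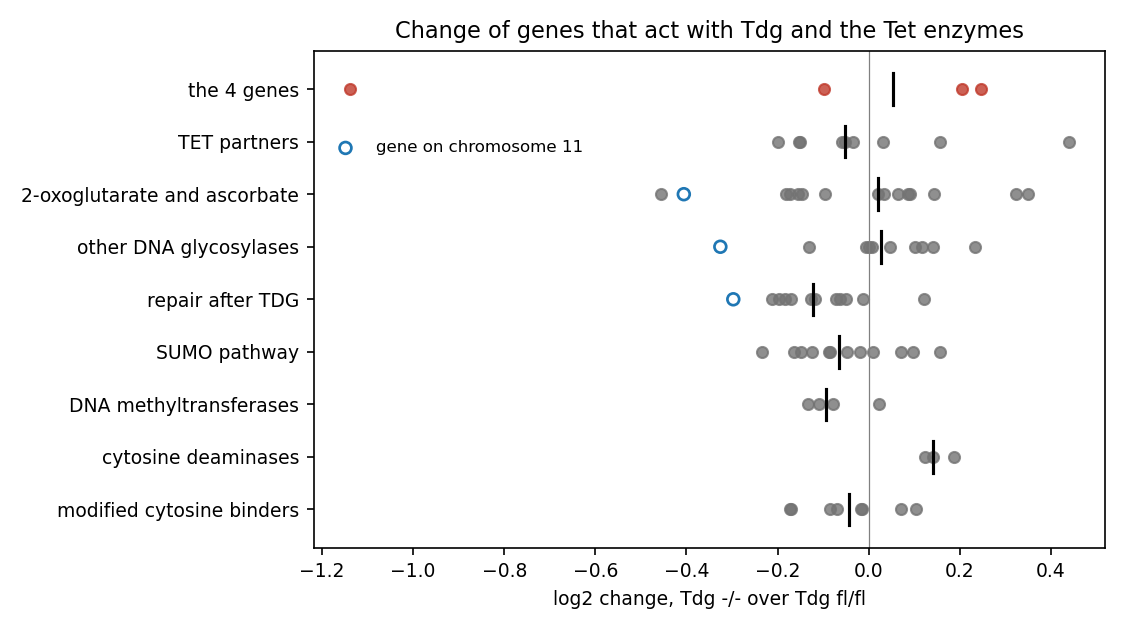
Log2 change, Tdg -/- over Tdg fl/fl, of the 4 genes (red) and of the measured genes of 8 lists (grey; open blue circles lie on chromosome 11); black bars are medians. Every list gene lies between -0.46 and 0.44, while Tdg is at -1.14.

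Thymine DNA glycosylase is modified by SUMO, which releases it from its product. In the SUMO pathway 4 of 12 measured genes were above 0 and 8 below, with a median of -0.07. The ligase Pias4 was at -0.17, with 23.6 FPKM in Tdg -/- cells and 26.6 FPKM in Tdg fl/fl cells, the protease Senp2 at 0.16 and the activating subunit Sae1 at -0.15. The DNA methyltransferase genes, which write the mark that TET enzymes oxidise, lay between -0.13 for Dnmt3b and 0.02 for Dnmt1, with 3 of 4 below 0 and a median of -0.09. Dnmt3a was at -0.11 and the cofactor Dnmt3l at -0.08.

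Of the cytosine deaminases, Apobec1, Apobec2 and Apobec3 were measured and each above 0, at 0.14, 0.12 and 0.19, with a median of 0.14. Among proteins that bind modified cytosine, 6 of 8 genes lay below 0, with a median of -0.04. Mbd3 and Uhrf2 were both at -0.17, Zbtb33 was at 0.10 and Thyn1 at -0.09.

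Markers were read to check the labelled cell type. The 9 ES cell markers with a row spanned 46.1 to 4691 FPKM in Tdg -/- cells and 31.6 to 4571 FPKM in Tdg fl/fl cells. Pou5f1, the core pluripotency factor, stood at 612 FPKM in Tdg -/- cells and 631 FPKM in Tdg fl/fl cells. The log2 changes of largest size among these markers were 0.53 for Utf1, 0.24 for Sox2, 0.16 for Esrrb and 0.09 for Klf4. None of the 9 changed 2-fold, beside 0.357% of all measured genes, a share at which most sets of 9 would hold none. Fibroblast markers reached at most 1.72 FPKM in Tdg -/- cells and 2.39 FPKM in Tdg fl/fl cells, and 2 of 8, Thy1 and Pdgfrb, were measured. Their FPKM summed to 3.87 in Tdg -/- cells and 5.29 in Tdg fl/fl cells, Lum was listed at 0 in both, and Col1a2 was at 0.0668 FPKM in Tdg -/- cells and 0.0678 FPKM in Tdg fl/fl cells. Of 10 markers of germ layers and extraembryonic lineages 3 were measured, Eomes, Gata4 and Sox1, and the 10 summed to 6.39 FPKM in Tdg -/- cells and 6.42 FPKM in Tdg fl/fl cells. In such bulk values fewer cells of a type and less RNA for each cell cannot be told apart.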

How the data were processed

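PolyA RNA of 2 libraries for each genotype was the data used, out of 30 libraries in the labels. The FPKM values were deposited by the authors, 1 for each row in each table, and 104 symbols had several rows. Per the submitters' processing notes, reads were processed with TopHat 1.4.1 and Cufflinks 1.3.0, with mm9 as the build. The way in which the 2 libraries became 1 value is not stated in the sources used here. FPKM corrects for transcript length and library size, and the depth behind each value is unknown. The 20437 rows of each table were summed to 20286 symbols. Changes are log2((Tdg -/- FPKM + 1)/(Tdg fl/fl FPKM + 1)), which understates low genes, over the 12053 symbols with at least 1 FPKM in either genotype. No test was possible. Of these symbols 11972 were placed in the RefSeq gene order of GRCm38, by symbol or a single synonym. Named are the 4 genes, the 3 genes nearest to each, of each pathway list the 4 with the largest absolute change, and genes chosen after their values were seen: Parp1, Cxxc4, Pou5f1, Lum, Col1a2, the neighbouring and overlapping genes. Of the marker lists, too, the 4 largest changes are named. For 1 gene that the rule names, no value is reported here. The members and lists were chosen with earlier results of these data known. The 8 region lists of 5fC, 5hmC and p300 give mm9 positions and were not used here, since no mm9 gene positions were at hand. Python 3.11.15 with pandas 2.3.3 was used, and the code that counts changed genes, not the counts themselves, was tested on simulated data with known changes. Alternatives were other pseudocounts, minimums, scalings, row rules and neighbour numbers.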

Additional observations from a re-analysis of the deposited data

How the results depend on the processing

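Tdg stayed at least 2-fold lower under each alternative run, with log2 changes from -1.22 to -1.12. Tet1 stayed between 0.20 and 0.27 and Tet2 between -0.10 and -0.04, with 0.27 and -0.04 after quantile normalization. Tet3 moved to 0.40 with a pseudocount of 0.1 and 0.42 with 0.01. Of 93 alternative values, 84 moved by less than 0.1 (log2) or 1 percentage point, or by at most 1.5 times for counts, and 9 moved further. Part of this count was fixed in advance, so it does not measure robustness. Each of the 4 genes has a single row, and centring shifted log2 changes by only 0.02. Several lists also kept the same genes under other minimums or without chromosome 11. With a pseudocount of 0.1, 58 genes were at least 2-fold higher and 52 lower, with a minimum of 5 FPKM 11 and 11, and without chromosome 11, chosen with earlier results known, 20 and 14. The median of the fibroblast markers, -0.31 over 2 genes, was -0.45 with a pseudocount of 0.1 and -0.011 with no minimum. The neighbours of Tet1 had a median of -0.069 over the 11 nearest. The median of the TET partners was 0.01 after quantile normalization, and that of the differentiated markers was 0.03, -0.005 with no minimum and -0.007 after quantile normalization. With a minimum of 5 FPKM neither the fibroblast nor the differentiated markers had a gene left. No paired analysis was possible because each genotype has 1 pooled value, and for the same reason no replicate could be left out. The alternatives for regions at the 4 genes were not run, because the regions could not be placed.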
